A study of Mus musculus with 3 samples.

Results

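The cells described here are those that the deposited cluster table names Erythrocytes, 68 of the 12670 cells that passed the authors' filters in 3 mouse melanomas. The regressed tumor held 60 of them, the untreated tumor 7 and the progressed tumor 1. The tumors came from a genetically engineered model on the C57BL/6 background (C57BL/6J in the methods) with a Cre-activated Braf LSL.V600E allele, a Tyr.CreER transgene and in part a Rosa26 LSL.tdTomato reporter, in which 4-hydroxytamoxifen on the skin starts Cre in melanocytes, the cells where the Tyr promoter is active. All 3 groups share the alleles of the model, so the untreated tumor is a tumor without drug and not normal skin. One tumor regressed and another progressed under vemurafenib, an inhibitor of mutant BRAF, and each group was 1 tumor and 1 library of droplet-based 3′ RNA sequencing. The study's methods give the age at tumor induction as a range of weeks for all animals, and no age for these 3. Cells came from tumors digested with collagenase and trypsin and were put into a cell sorting buffer with propidium iodide, and no sorting gate is described. The methods name no step that lyses red cells, so the number of Erythrocytes also depends on blood in the tissue and on the cell preparation. There is no replicate tumor: each difference below has no replicate check and no p-value, and the 95% intervals cover counting error only. Cells are identified by running numbers and not by barcode sequences, so barcodes shared between libraries could not be counted.

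Red cells are made from nucleated precursors that fill with haemoglobin, a tetramer of 2 alpha and 2 beta chains around heme, and then expel the nucleus. The reticulocyte that is left still carries RNA, ribosomes and mitochondria, and loses them as it becomes the mature erythrocyte of the blood. Progenitors divide and express GATA1 and KLF1, whereas late cells keep mainly globin RNA, transcripts of heme synthesis such as Alas2, and transcripts of the machinery that clears proteins and organelles. Fully mature erythrocytes carry little RNA.

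The 4 adult globin genes that define the cells sit in 2 clusters. On GRCm38, Hbb-bs (Entrez 100503605) spans chr7:103826523-103827928 and Hbb-bt (101488143) chr7:103812524-103813923, both on the minus strand, while Hba-a1 (15122) spans chr11:32283672-32284486 and Hba-a2 (110257) chr11:32296492-32297310, both on the plus strand. Alas2 (11656), the erythroid enzyme of the first step of heme synthesis and the most abundant named non-globin transcript that marked these cells, spans chrX:150547417-150570622. The 120 bases before each start site are printed 5′ to 3′ on the gene's strand because these genes were high together, with capitals for 4 short motifs searched on both strands. The TATA-box form searched was ATATAA. The box known to be bound by NF-Y was searched as CCAAT. The box known to be bound by KLF1 was searched as CACCC. The form known to be bound by GATA factors was searched as AGATAA. The windows are chr7:103827929-103828048, chr7:103813924-103814043, chr11:32283552-32283671, chr11:32296372-32296491 and chrX:150547297-150547416 in RefSeq's GRCm38.p6 tables.
Hbb-bs: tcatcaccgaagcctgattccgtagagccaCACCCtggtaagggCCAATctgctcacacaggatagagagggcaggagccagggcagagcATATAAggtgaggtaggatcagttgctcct
Hbb-bt: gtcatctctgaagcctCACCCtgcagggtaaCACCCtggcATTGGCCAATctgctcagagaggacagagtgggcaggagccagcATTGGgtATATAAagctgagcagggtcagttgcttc
Hba-a1: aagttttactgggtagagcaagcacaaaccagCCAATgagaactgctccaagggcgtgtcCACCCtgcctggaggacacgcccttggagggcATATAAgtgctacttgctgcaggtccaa
Hba-a2: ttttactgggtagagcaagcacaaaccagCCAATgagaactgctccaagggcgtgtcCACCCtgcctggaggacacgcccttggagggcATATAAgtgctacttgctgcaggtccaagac
Alas2: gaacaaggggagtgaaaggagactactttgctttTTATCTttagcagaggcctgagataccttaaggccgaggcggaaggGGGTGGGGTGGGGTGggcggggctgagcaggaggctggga
All 4 globin windows hold the TATA-box form and at least 1 copy each of the CCAAT and CACCC boxes, with repeats of both boxes in Hbb-bt. The capitals of Hbb-bt before CCAAT, and before the TATA-box form, are the same box on the opposite strand. Among 32851 windows of the same length before RefSeq start sites, 4.47% hold the TATA-box form, 21.3% the CCAAT box and 31.7% the CACCC box on either strand. The Alas2 window holds the GATA-factor form on the opposite strand, where the printed strand reads TTATCT, which 4.36% of windows hold. It also holds 3 adjacent copies of the CACCC box on the opposite strand, and neither of the other motifs. The 250 bases before the starts of Hba-a1 and Hba-a2 share an identical run of 247 bases, whereas the longest run shared by Hbb-bs and Hbb-bt is 14 bases. A match describes the letters and is not a binding site.

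Erythrocytes made up 1.61% of regressed cells (60 of 3726, exact binomial interval 1.23% to 2.07%), 0.171% of untreated cells (7 of 4095, 0.0688% to 0.352%) and 0.0206% of progressed cells (1 of 4849, 0.000522% to 0.115%). The libraries differed in depth, with 22202192, 12413268 and 26948940 UMIs (unique molecular identifiers, 1 per captured molecule) in the untreated, regressed and progressed tables. With 1 tumor each, treatment, tumor and blood content cannot be told apart. The tables list Hbb-bs again as Hbb-b1 and Hbb-bt again as Hbb-b2, with the same count in every cell, so every beta globin UMI enters a column sum 2 times. UMI totals per cell and globin shares below count each repeated feature once unless stated. Non-globin UMIs, and the CPM and ratios made from them, keep the repeats of non-globin features. With repeats counted once, the 60 regressed cells held 2.56% of their library's UMIs and 92.7% of its adult globin UMIs.

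Adult globin RNA took most of what was captured from these cells, as it must where the authors named the cluster by haemoglobin. In the regressed Erythrocytes 249322 of 309845 UMIs, or 80.5% (80.3% to 80.6%), came from the 4 adult globin genes, and the lowest, median and highest cell held 59.1%, 82.7% and 88.6%. The 7 untreated cells held 90.5% to 94.4%, with 92.04% over their sum (91.7% to 92.3%), so 7 of 7 were above the highest regressed cell. The single progressed cell held 51.6% (49.5% to 53.7%), below each of the other 67. On the column sums as deposited, where each beta globin UMI is listed 2 times, the shares are 48.7%, 51.3% and 35.4%. The deposited totals per cell are smaller again: in the untreated cells they sum to 30297, fewer than the 31420 adult globin UMIs in the table. How the deposited totals were counted is not given in the sources used here.

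**Figure D1:**
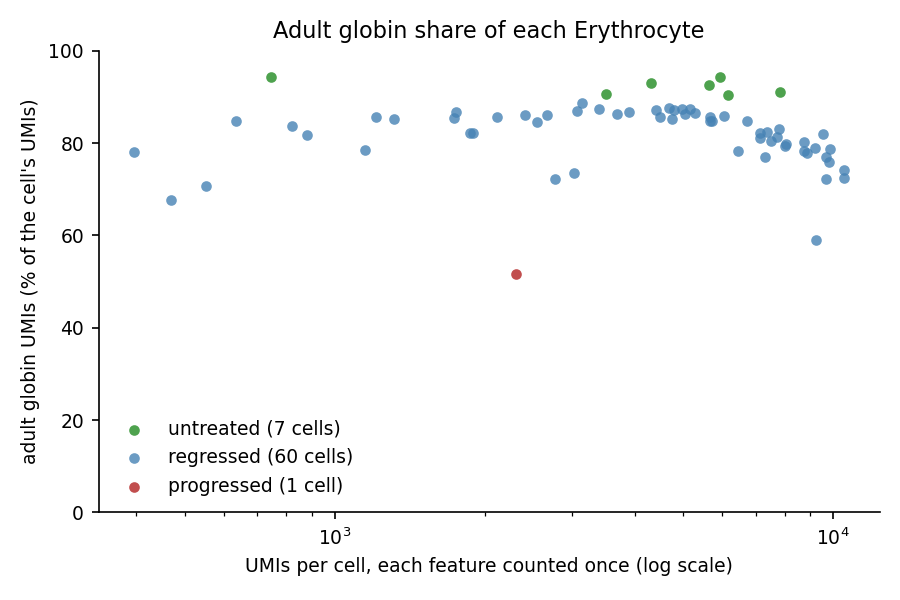
Each point is an Erythrocyte, with its UMIs counted once per repeated feature on a log scale and the percent of them from Hba-a1, Hba-a2, Hbb-bs and Hbb-bt. The 7 untreated cells lie at 90.5% to 94.4%, above all 60 regressed cells, and the progressed cell lies at 51.6%.

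All 4 adult globins, the genes by which the cluster is named, were present in 60 of 60 regressed Erythrocytes, which describes the naming and does not check it. Hbb-bs, a beta chain gene, had 179, 2640.5 and 4634 UMIs in the lowest, median and highest cell, and Hbb-bt, the other adult beta gene, 36, 942 and 1920. The alpha chain genes Hba-a2 and Hba-a1 had medians of 480.5 and 336.5 UMIs and highest values of 963 and 708. Beta transcripts were thus in excess over alpha in each of these cells, from 57.4% to 86.0% of adult globin UMIs with a median of 80.2%. In the untreated cells Hbb-bs had 526, 2152, 2692, 3343, 3592, 3322 and 4571 UMIs in order of total UMIs, and the beta share lay between 85.3% and 87.4%. The progressed cell had 818 UMIs of Hbb-bs, 226 of Hbb-bt, 93 of Hba-a2 and 54 of Hba-a1, a beta share of 87.7%. Alpha and beta RNA are captured and mapped with unknown relative efficiency, so these shares are not chain ratios.

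The other cells of the regressed tumor held globin too, at a low and even level and in another mix. In 20 other clusters of at least 10 cells, adult globins took 0.114% (Stroma4) to 0.235% (MitoHigh) of UMIs, and 1 of 3666 other cells was above 1%, a blood vessel cell at 1.97%. In these clusters beta transcripts were 92.5% to 100% of adult globin UMIs, against 81.1% (81.0% to 81.3%) in the Erythrocytes. The other cells summed gave 96.4% (96.1% to 96.7%), from 16847 Hbb-bs, 2220 Hbb-bt, 365 Hba-a2 and 347 Hba-a1 UMIs. Hbb-bs outnumbered Hbb-bt 7.59 to 1 there and 2.72 to 1 in the Erythrocytes. In the untreated tumor the other cells held adult globin at 0.00386% of UMIs with a beta share of 96.7% (95.2% to 97.8%), against 86.2% (85.8% to 86.6%) in its Erythrocytes. None of the 12602 other cells of the 3 tumors exceeded 5%, a description of cells that were set apart by globin.

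**Figure D2:**
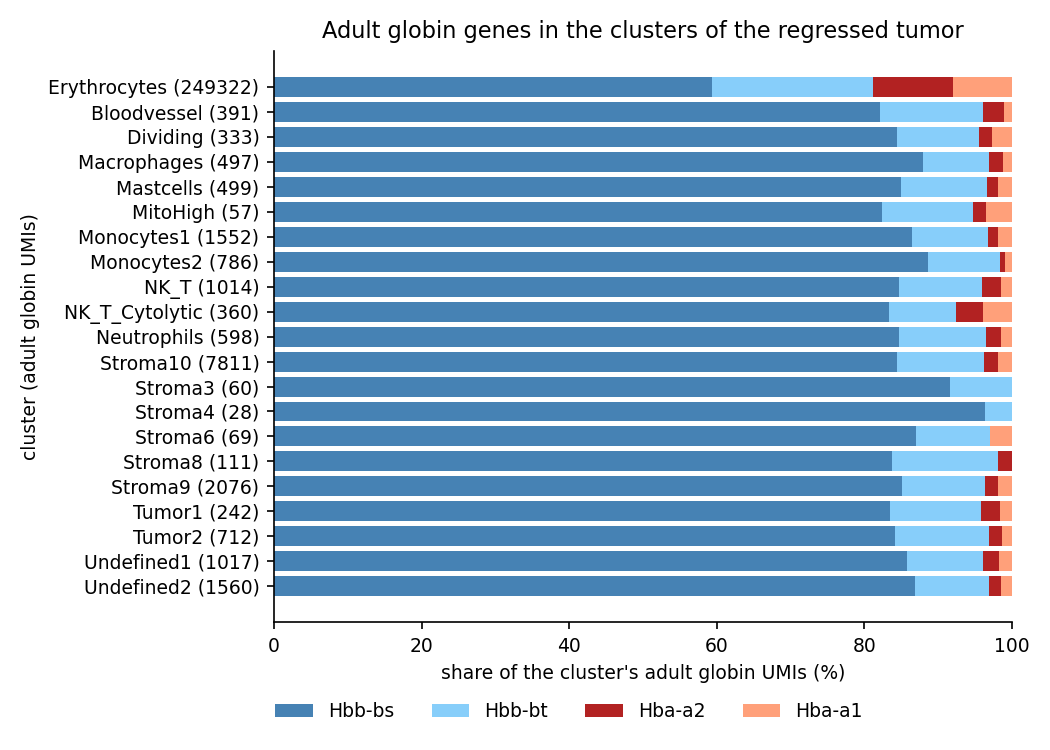
Bars give the percent of each regressed cluster's adult globin UMIs from each gene, for clusters of at least 10 cells, with the number of those UMIs in brackets. Hba-a1 and Hba-a2 together fill 18.9% of the Erythrocyte bar and at most 7.5% of any other bar.

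The mix also moved with depth inside the cluster. Over the 60 regressed cells, the Hbb-bs share of beta globin UMIs fell with the cell's adult globin UMIs (Spearman −0.79, n = 60 cells of 1 library, a description), and the beta share of adult globin rose (0.51). The 20 cells with the fewest adult globin UMIs (309 to 2666) had 3.56 Hbb-bs UMIs per Hbb-bt UMI, the middle 20 cells 2.92 and the 20 cells with the most (5710 to 7827) 2.48. The other regressed cells, with far fewer globin UMIs each, stood at 7.59. The authors merged UMIs of a gene that differ by 1 base, and the part of that step in these ratios was not tested.

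**Figure D3:**
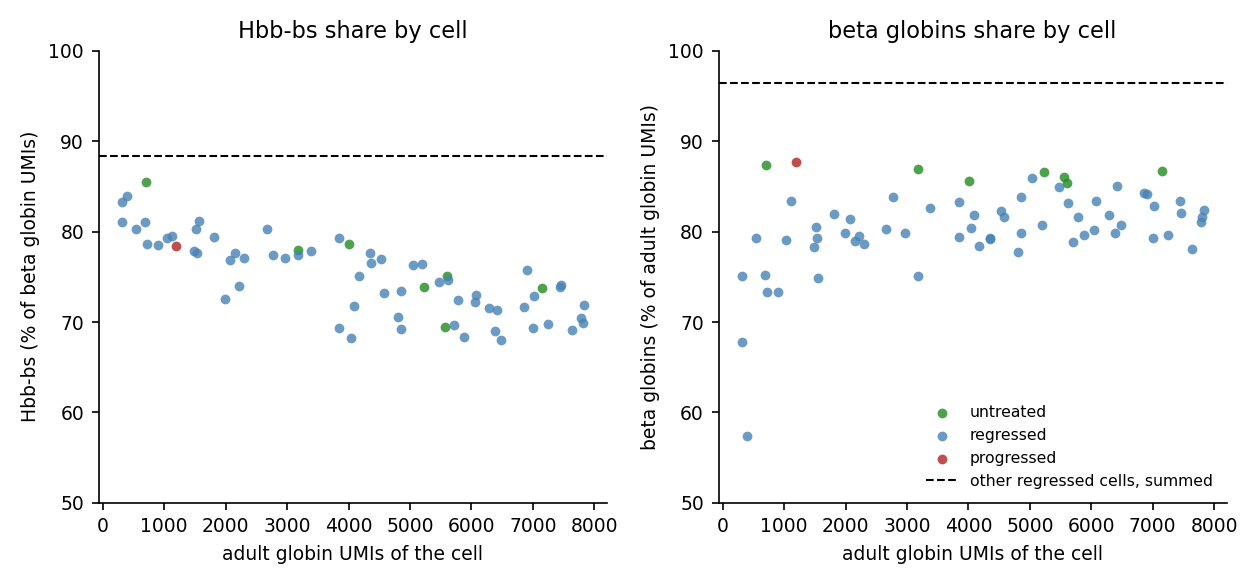
Each point is an Erythrocyte, and the horizontal axis is its adult globin UMIs. The left panel shows Hbb-bs as a percent of beta globin UMIs and the right panel both beta genes as a percent of adult globin UMIs, with the other regressed cells summed as a dashed line at 88.4% and 96.4%, above every regressed Erythrocyte in both.

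Transcripts of embryonic and minor globin genes were counted in the same cells. Hba-x, the embryonic zeta-like gene, had 700 UMIs in 58 of 60 regressed Erythrocytes and 6 UMIs in 3666 other cells, Hbb-bh2 287 UMIs against 1, Hbb-bh1 256 against 27, Hbb-y, the embryonic epsilon-like gene, 130 against 4, and Hbq1b 78 against 3. These are small next to the adult genes: Hba-x came to 2.81 UMIs per 1000 adult globin UMIs, Hbb-bh2 to 1.15, Hbb-bh1 to 1.03 and Hbb-y to 0.521. In the untreated Erythrocytes the same genes stood at 2.10, 0.668, 0.414 and 0.127. Their copies resemble the adult genes, so reads of the adult transcripts counted there cannot be told apart from embryonic transcripts, and the counts are uncertain. Mb, the myoglobin gene, and Ngb, neuroglobin, had no UMI in these cells.

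Without globin the regressed Erythrocytes held 59261 UMIs, and the comparisons below use CPM (a gene's UMIs per 1000000 non-globin UMIs) against the 3666 other regressed cells. Of 14974 features with at least 20 UMIs in both groups together, 733 were at least 4-fold higher in the Erythrocytes, 4.9% of those tested. At least 4-fold lower were 153, or 1.02%. Counting each repeated feature once gave 722 higher and 150 lower. Most of the higher calls rest on few molecules: 487 had 1 or 2 UMIs in the Erythrocytes, where 1 UMI is 16.9 CPM, and only 81 (0.541%) had at least 10. Of the 1026 features with at least 10 UMIs in these cells, 811 or 79.0% lay within 2-fold of the other cells. A feature with no UMI in the Erythrocytes, which holds for 36.1% of those tested, was set to 3 UMIs for its ratio, and over all tested features the median log2 ratio was then 0.91.

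Heme synthesis was carried by its first and last enzymes. Alas2 had 832 UMIs in 48 of 60 cells (median 13, highest 36), or 14040 CPM against 13.2 in the other cells, a log2 ratio of 10.05 (9.80 to 10.31). Fech, ferrochelatase, which puts the iron into heme, had 133 UMIs in 35 cells and a log2 ratio of 5.42. The enzymes between them were scarce: Urod had 8 UMIs, Alad 5, Ppox 2, Cpox 1 and Uros none. For its ratio Uros was set to the floor of 3 UMIs, or 50.6 CPM, and the upper limit of its log2 ratio was 3.03. Of the 8 list members, 2 passed 4-fold higher and 0 lower, beside the 4.9% and 1.02% of all features, with a median log2 ratio of 1.37. All 8 lay at or below 53.6 CPM in the other cells, too rare there to be called lower. The summed list stood at 6.13 (6.02 to 6.23), and without Alas2 and Fech at 0.66 (−0.15 to 1.36).

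A few iron handling genes were high as well. Slc25a37, mitoferrin-1, which brings iron into the mitochondrion, had 45 UMIs in 23 cells and a log2 ratio of 6.15 (5.62 to 6.65). Glrx5, a glutaredoxin of iron-sulfur cluster assembly, stood at 2.17 and Blvrb, biliverdin reductase B, at 2.02, with 32 and 31 UMIs. Tfrc, the transferrin receptor that immature red cells carry, had 2 UMIs. Fth1 and Ftl1, the ferritin chains found in most cells, had 532 and 212 UMIs and log2 ratios of 0.29 and 1.38. Of 15 list members tested, 3 were at least 4-fold higher and 0 lower, beside 4.9% and 1.02% of all features, with a median of 1.38. Glrx5 and Blvrb changed sign with all UMIs as denominator, to −0.94 and −1.09.

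Membrane and surface genes were few. Epb41, protein 4.1 of the red cell skeleton, had 72 UMIs in 30 cells and a log2 ratio of 6.09 (5.69 to 6.49), and Mpp1, a palmitoylated skeleton protein, 13 UMIs and 2.50. Aqp1, the water channel, and Cd47, the signal against phagocytosis, both with 22 UMIs, stood at 0.91 and −0.03. Slc4a1, the band 3 anion exchanger, had 4 UMIs against 1, and Tspo2 5 against 0, both too few overall for the count. Sptb, Ank1, Epb42, Rhag, Rhd, Kel and Xk had none. Of 12 members tested, 3 were at least 4-fold higher and 0 lower, beside 4.9% and 1.02% of all features, with a median of 1.17, and the sum stood at 2.0 (1.8 to 2.2). Per cell of equal weight the sum was 1.49, and with all UMIs as denominator it changed sign, to −1.11, as did Mpp1, to −0.61.

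The terminal maturation list held the largest number of high genes. Bpgm, which makes the 2,3-bisphosphoglycerate that loosens oxygen from haemoglobin, had 300 UMIs in 34 cells (log2 ratio 7.34), and Car2, carbonic anhydrase 2, 54 UMIs in 17 cells (6.69). Among the list's genes of ubiquitin conjugation, Ube2l6 had 190 UMIs (6.82), Mkrn1, a ring-finger ligase, 362 UMIs (5.94), Ube2o, which clears ribosomal proteins, 24 UMIs (4.92), Ube2b 77 UMIs (2.62) and Rnf10 49 UMIs (2.75), whereas Fbxo7 had 3 UMIs (1.25) and Trim58 none. With globin in the denominator (all UMIs), Ube2b, Rnf10 and Bcl2l1 stood at −0.49, −0.36 and −0.29. Bnip3l, the receptor for removal of mitochondria, had 65 UMIs in 25 cells (4.14, 3.74 to 4.51). Isg20, an exonuclease, had 66 UMIs (6.57), Tent5c, a poly(A) polymerase, 75 (6.11) and Bcl2l1, the survival protein of late erythroblasts, 20 (2.81). Ucp2 and Map1lc3b, with 45 and 10 UMIs, stood at 1.91 and 0.35. Of 23 members tested, 15 were at least 4-fold higher, 12 of them with at least 10 UMIs, and 0 lower, beside 4.9% and 0.541% of all features. The median was 2.81 and the summed list 4.58 (4.50 to 4.65), and 3.15 without its 5 most abundant members.

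Oxidant defence was mixed. Gclm, a subunit of the glutathione-making enzyme, had a log2 ratio of 3.85, Gpx1, glutathione peroxidase 1, 2.60, Cat, catalase, 2.59 and Prdx2, peroxiredoxin 2, 2.23, from 40, 172, 18 and 73 UMIs. Gpx4 and Sod1, with 1 UMI each, counted as lower, at −2.66 (−7.97 to −0.18) and −2.31 (−7.62 to 0.17), and Txn1 stood at −0.87. The interval of Sod1 includes 0. So 4 of 12 members were higher and 2 lower, beside 4.9% and 1.02% of all features. With all UMIs as denominator Gpx1, Cat and Prdx2 changed sign, to −0.51, −0.52 and −0.87. Of 14 glycolysis genes tested 0 passed in either direction, with Aldoa at 0.39, Ldha at 0.12 and Pkm at −0.68, and a median of 0.37.

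**Figure D4:**
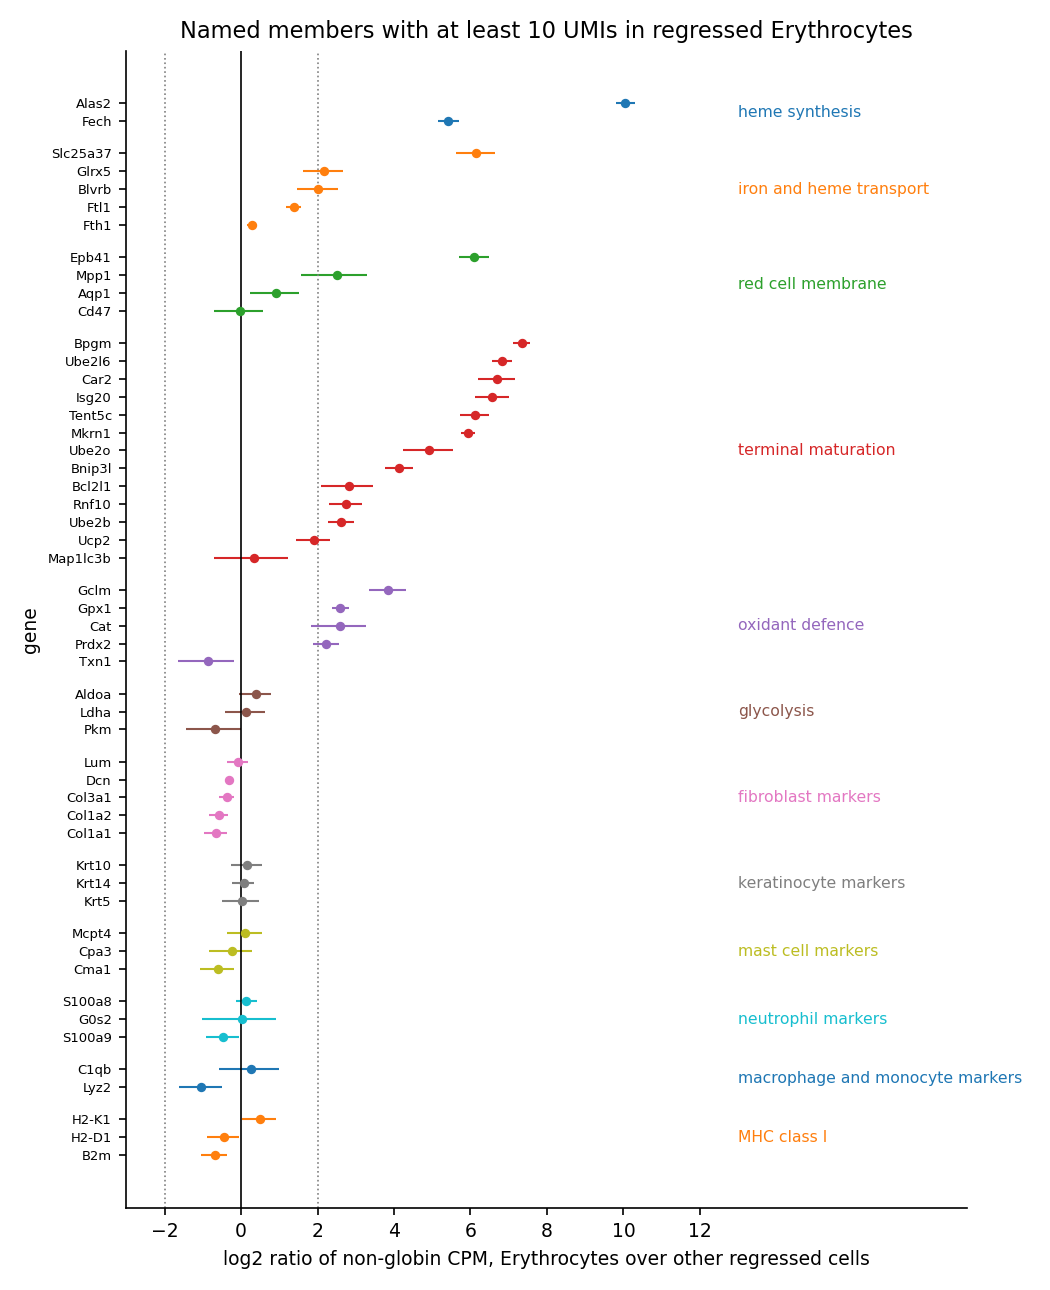
Points are log2 ratios of non-globin CPM, Erythrocytes over other regressed cells, for list members reported by name with at least 10 UMIs in the Erythrocytes, with exact 95% counting intervals and dotted lines at 4-fold. Alas2 lies near 10, whereas markers of fibroblasts, keratinocytes, mast cells, neutrophils and macrophages lie between −1.04 and 0.26.

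Several genes of early erythroid stages were not detected. Gata1, Klf1, Gfi1b, Tal1, Nfe2 and Epor, the erythropoietin receptor, had no UMI in the 60 cells, and Kit, Gata2 and Myc had 2 each. Of the other progenitor genes Cd44 had 16 UMIs and Spi1 11. Of 7 transcription factors and receptors tested, 1 was called higher, Lmo2 with 6 UMIs (2.24), and 0 lower, beside 4.9% and 1.02% of all features. Among dividing-cell genes Mki67 had no UMI, Top2a 3, Cdk1 and Birc5 4 each, and Tubb5, a tubulin found in many cells, 55 in 34 cells. The summed cell cycle list stood at 1215 CPM against 1005 in the other cells (log2 ratio 0.27, −0.08 to 0.61), and the progenitor list at 675 against 555 (0.28, −0.20 to 0.73). None of 14 cell cycle genes and 8 progenitor genes tested passed 4-fold either way, with medians of 0.76 and 0.00. Of the cell cycle genes only Tubb5, with 55 of the list's 72 UMIs, was frequent enough in the other cells to be called lower. Another 5 of the 14 had 0 UMIs, and their ratios come from the floor of 3 UMIs. The median of 0.76 therefore does not show whether cell cycle genes were reduced. As the Erythrocytes held few UMIs, 0 UMIs leaves these genes undetected at this depth and does not show that they are absent.

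Ribosomal protein transcripts were lower. The 86 genes summed to 2.23% of non-globin UMIs in the regressed Erythrocytes and 5.27% in the other cells, a log2 ratio of −1.24 (−1.32 to −1.17), with a median of −1.63. Of the 86, 23 were at least 4-fold lower and 1 higher (Rpl3l, from 1 UMI, named after its value was seen), beside 1.02% and 4.9% of all features. Rps18 and Rps4x had 4 UMIs each (−3.25 and −3.08). The 10 lowest features of at least 200 CPM in the other cells were 8 ribosomal protein genes (Rps10, Rpl17, Rps18, Rps4x and Rpl35a among them), the mitochondrial TrnI and Tmsb10, which codes for thymosin beta 10, at −4.09 to −2.89. In the untreated tumor the genes took 3.81% in Erythrocytes and 7.98% in other cells. Mitochondrially encoded transcripts did not share this shift: 1.27% against 1.26% in the regressed tumor, a log2 ratio of 0.01 (−0.10 to 0.11), and −0.26 for the 13 messengers alone. The mitochondrial value changes sign with the scaling or weighting and is given without a direction.

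By the rule for the 15 highest features with at least 20 UMIs, list genes took 11 places (Alas2, Bpgm, Ube2l6, Car2, Isg20, Slc25a37, Tent5c, Epb41 and Mkrn1 among them). The first was feature 102643133, whose Entrez ID matched no symbol in the annotation used, with 129 UMIs in 48 cells against 4 UMIs elsewhere (12.66). Its counts were close to those of the globin gene Hbb-y, with 130 UMIs in 48 cells against 4 UMIs elsewhere. Without a symbol it was kept among the non-globin features, and whether its reads are globin reads was not tested. The others were Rec114, a gene known from meiosis, with 40 UMIs (6.92), Rsad2, an interferon-induced antiviral gene, with 31 (6.55), and Isca1, of iron-sulfur cluster assembly, with 54 (5.70). In the untreated tumor, a separate library, Alas2 had 189 UMIs in its 7 Erythrocytes against 4 in 4088 other cells, and Bpgm 46 against 628 (log2 ratio 9.27, 8.81 to 9.71). Of the 15, 14 had at least 1 UMI in those 7 Erythrocytes, and 8 had at least 7. Epb41 and Tent5c had 1 UMI each there, Isca1 2, Car2 and Rec114 3 each and feature 102643133 4. The share of all tested features with a UMI in the untreated Erythrocytes was not counted, so these numbers describe the 15 only.

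A gene's share of cells with a UMI depends on depth, so cells were also thinned to 300 non-globin UMIs, which 48 regressed Erythrocytes reached. Alas2 then had a UMI in 44 of 48 cells, 91.7% (80.0% to 97.7%), Mkrn1 in 66.7%, Ube2l6 in 56.2%, Bpgm in 24 of 48 cells and Fech in 47.9%. Unthinned, Alas2 was found in 80.0% of the 60 cells and Mkrn1 in 71.7%. In Stroma10, a stromal cluster of 1537 cells that should lack Alas2, its thinned share was 0.520%. Mkrn1, which other cells also express, had a thinned share of 1.76% there and an unthinned share of 17.1%. Median non-globin depth was 686 UMIs in the Erythrocytes and 3003 in Stroma10.

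Most of the non-globin RNA came from genes outside the erythroid lists: the heme, membrane and maturation lists made up 4.90% of it in the regressed cells, 18.2% in the untreated cells and 0.711% in the progressed cell. Feature 19791, whose Entrez ID matched no symbol in the annotation used, led with 1665 UMIs. Malat1, a nuclear long non-coding RNA, had 1305 and Alas2 832, followed by Gsn, Apod, Dcn, Fth1 and Apoe with 485 to 808. Dcn, the fibroblast proteoglycan decorin, was found in 55 of 60 cells, at 9365 CPM against 11579 in the other cells (log2 ratio −0.31). All 6 fibroblast markers, 3 of 3 keratinocyte, 4 of 4 mast cell and 6 of 6 neutrophil markers were detected, and their sums stood at log2 ratios of −0.37, 0.08, −0.26 and −0.05. Macrophage and monocyte markers summed to −0.53, NK and T cell markers to −0.09 and MHC class I genes to −0.38. Platelet markers had 7 UMIs, endothelial markers 9 and the tumor reporter transcripts 8. Their log2 ratios were −0.72 (−2.04 to 0.32), 0.54 (−0.59 to 1.47) and 0.14 (−1.07 to 1.12). The markers Adgre1, Gzma, Emcn, Ppbp, Gp9, Gp1bb and Gp5 had no UMI in the 60 regressed Erythrocytes. The untreated Erythrocytes held 16400 CPM of fibroblast markers, beside 30925 in the untreated other cells, and no mast cell, endothelial or platelet marker. In the untreated other cells the last 3 lists stood at 286, 179 and 292 CPM. As 1 UMI in the untreated Erythrocytes is 381 CPM, finding none does not show that they are absent. The part of transcripts from outside the erythroid lists in the results above was not tested. They enter the non-globin total, so each erythroid CPM is a share of a mixed pool.

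Depth, erythroid transcripts and other transcripts rose together from cell to cell. Non-globin UMIs ran from 87 over a median of 686 to 3776, and followed adult globin UMIs at a Spearman correlation of 0.96. Fibroblast marker UMIs followed them at 0.93 and the summed heme, membrane and maturation lists at 0.91, all over 60 cells that share 1 library. In CPM of non-globin UMIs the fibroblast markers were even, at 17817, 20938 and 17061 in the 20 cells with the fewest, the middle 20 and the 20 cells with the most adult globin. The 3 erythroid lists summed to 3.65%, 3.93% and 5.58% of non-globin UMIs in the same groups, and to 7.72, 7.97 and 14.8 UMIs per 1000 adult globin UMIs. The cells of the last group held 58 to 154 such UMIs, the middle 20 held 3 to 100 (median 24) and the first 20 held 0 to 65 (median 3). Single cells with 53 and 65 gave much of the 211 such UMIs of the first group, so its sums are not those of its typical cell.

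**Figure D5:**
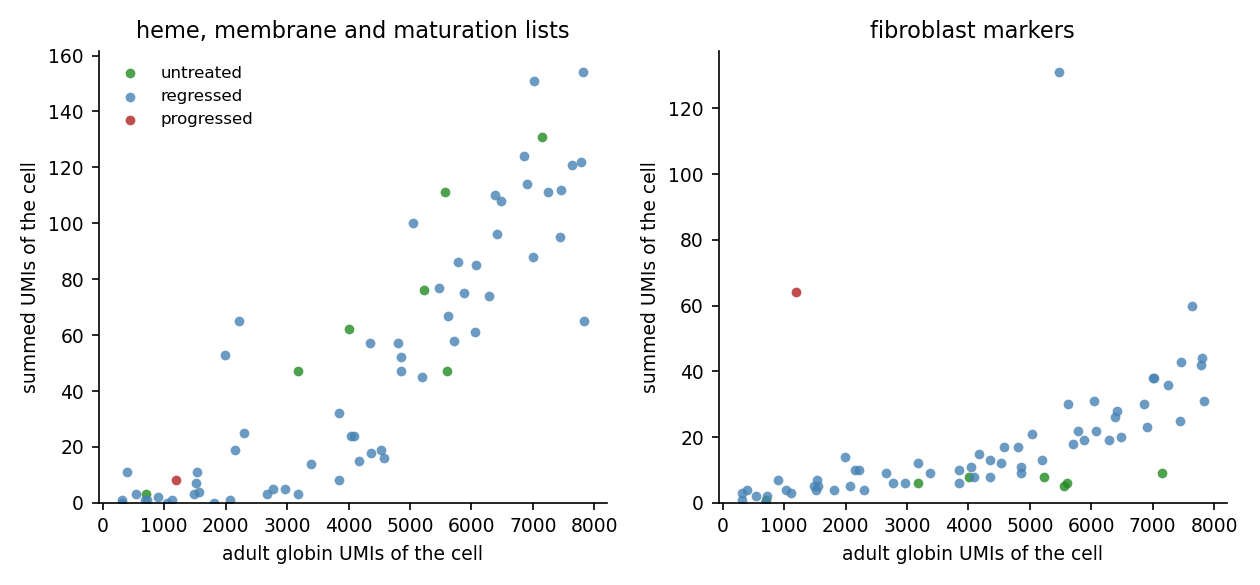
Each point is an Erythrocyte, with its adult globin UMIs on the horizontal axis and, on the vertical axis, summed UMIs of the heme, membrane and maturation lists (left) or of 6 fibroblast markers (right). The regressed cell at 131 fibroblast UMIs and the progressed cell at 64 stand above all other cells, of which the highest has 60.

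The erythroid genes differed in how they spread over these cells. Alas2 was the most even, at 2.71, 2.90 and 3.74 UMIs per 1000 adult globin UMIs from the cells with the fewest to those with the most. Bpgm stood at 0.768, 0.454 and 1.76, Bnip3l at 0, 0.128 and 0.397, and Slc25a37 at 0.0366, 0.0814 and 0.272. The 0.768 of Bpgm rests on 21 UMIs, of which single cells held 10 and 9. Alas2 had UMIs in 8, 20 and 20 cells of the 3 groups of 20, and no cell above 2666 adult globin UMIs lacked it. In 3 cells Alas2 was found without Bpgm, Fech, Mkrn1 or Ube2l6, in 45 with at least 1 of them, in 10 none of the 5 was found and in 2 the others without Alas2. Most of the cells without Alas2 were shallow, with a median of 969.5 adult globin UMIs.

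By Spearman correlation with the cell's globin share, among 887 non-globin features with a UMI in at least 10 of the 60 cells, the 10 most alike were feature 19791 (0.81), mt-Rnr2 (0.37), AY036118, feature 102643133, Mitf, Col1a1, Zfp36, Sh3glb1, Bcas3 and Rplp0 (0.24). All others than 19791 lay at or below 0.37. Feature 102643133 had counts close to those of Hbb-y, as given above, and may not be a non-globin feature. The median of all 887 was −0.17. At the other end, chosen after the values were seen, Car2 (−0.65), Gpx1 (−0.60) and Gclm (−0.57) were highest in cells with a lower globin share.

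The regressed Erythrocytes spanned 396 to 10536 UMIs (median 5013.5) and 84 to 2013 genes (median 538), and the untreated ones 746 to 7842 UMIs and 46 to 382 genes. Thinned to 1000 UMIs with globin included, 54 regressed cells had 102 to 306 genes (median 148). In the untreated tumor 6 cells had 47 to 80 (median 71.5), with no overlap, while Stroma10 cells had a median of 684. Globin took a larger share of the untreated cells' UMIs, which left fewer non-globin UMIs after thinning. The gene numbers are therefore not a difference separate from the globin share. Per 1000 adult globin UMIs, the untreated cells held more Alas2 (6.02 against 3.34, log2 difference 0.85, 0.61 to 1.08) and more Rnf10 (0.668 against 0.197). Bpgm, Mkrn1, Ube2l6 and Fech had intervals that include 0, as at 0.28 (−0.20 to 0.73) for Bpgm. On the same scale membrane genes were fewer, with 0.255 against 0.790 for the list and Epb41 at 1 UMI against 72. Tent5c, of the maturation list, had 1 UMI against 75. Fibroblast markers stood at 1.37 against 4.34 and ribosomal proteins at 3.18 against 5.29 per 1000 adult globin UMIs. These directions depend on the denominator. In non-globin CPM, Bpgm and Mkrn1 stood at 17544 and 12967 in the untreated cells against 5062 and 6109 in the regressed cells. Ube2l6 and Fech stood at 7628 and 9153 against 3206 and 2244. Of non-globin UMIs the membrane list took 3051 CPM (1317 to 6012) against 3324, and fibroblast markers 16400 against 18275. Ribosomal proteins went the other way, with 3.81% against 2.23%. These are 7 cells of 1 tumor against 60 of another, and differences of tumor, animal and cell number cannot be told apart.

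Alas2 per untreated cell was 0, 30, 36, 27, 23, 28 and 45 UMIs in order of total UMIs, so 6 of 7 cells held at least 23. The cell with none was the shallowest, with 746 UMIs and 46 genes. The progressed cell stood apart: it had 682 genes, no Alas2, 8 UMIs of the 3 erythroid lists and 64 UMIs of fibroblast markers in 1125 non-globin UMIs (56889 CPM). Among the regressed cells the 1 with the most genes (2013) likewise held the most fibroblast marker UMIs, 131, and the lowest globin share, 59.1%. Doublets were not called here, and whether these 2 droplets held more than 1 cell was not tested.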

How the data were processed

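The deposited tables hold counts of UMIs per gene (Entrez ID) and cell for 3 libraries of 10x Chromium 3′ version 2 chemistry. Per the study's methods, the authors aligned reads with GSNAP to GRCm38, kept uniquely mapped reads, counted UMIs of sense reads over exons after merging UMIs 1 mismatch apart, dropped cells under 300 UMIs and clustered the rest with Seurat (2.2.0 in the submitters' processing notes). A further deposited table gives each cell's cluster name, gene number and UMI total, and names were taken from it. The gene number was equal to that of the count tables in 12670 of 12670 cells. The summed counts exceeded the deposited UMI totals by 4.42% to 6.09% in the 3 libraries, and 45 features repeated another in every cell. Of 36530 features, 31049 matched a symbol by Entrez ID, and Ahsp did not.

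UMIs were summed over Erythrocytes and over all other cells of a tumor and divided by non-globin UMIs, leaving out all Hba, Hbb and Hbq1 genes. A feature was called at a 4-fold ratio when it had at least 20 UMIs in both groups together, and a group total of 0 was replaced by 3 UMIs. Intervals are exact (Clopper-Pearson, Poisson, and conditional binomial for ratios, 95%), and PCR copies aside they cover counting error only. The ratio code was tested on simulated data. No test between tumors was possible with 1 tumor per group. Members of lists with at least 10 UMIs are named, as are the 15 highest features with at least 20 UMIs, the 10 lowest with at least 200 CPM elsewhere, and the 10 with the highest rank correlation with globin share. Some genes that these rules name, and an allele of the mouse model, are not reported here, while counts, sums and medians of lists include all members. The cells, lists and rules were chosen with earlier results of these data known. Mitochondrial genes were taken by chromosome, since few have the symbol prefix. Ribosomal proteins were taken by symbol. Doublets were not called. Sequences are RefSeq's (GRCm38.p6), with all 5 genes matched. Alternatives were equal weight per cell, other sets of cells, all UMIs as denominator, thinning, a TMM factor (edgeR 4.0.16), repeated features counted once and no minimum. Python 3.11.15, numpy 2.4.6, scipy 1.17.1 and pandas 2.3.3 were used.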

Additional observations from a re-analysis of the deposited data

How the results depend on the processing

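The log2 ratios are relative to non-globin UMIs, and this choice moved them most. With all UMIs as denominator the sums were 3.02 for heme synthesis, −1.11 for membrane, 1.47 for terminal maturation, −4.35 for ribosomal proteins and −3.10 for mitochondrial transcripts, with 20 features higher and 8124 lower, and Glrx5 (−0.94), Blvrb (−1.09), Mpp1 (−0.61), Ube2b (−0.49), Rnf10 (−0.36), Bcl2l1 (−0.29), Prdx2 (−0.87), Cat (−0.52) and Gpx1 (−0.51) changed sign. This denominator includes the globin UMIs. A TMM factor moved every ratio by −0.30, to 5.83, 1.69, 4.27, −1.55 and −0.29 for the same 5 sums, with 291 features lower. Against the 957 immune cells the sums were 6.58 (heme), 4.22 (maturation), −1.60 (ribosomal) and 0.25 (mitochondrial), with 336 features lower. Thinned to 300 non-globin UMIs they were 6.56, 4.29, −0.89 and −0.40, with 369 features higher and 36 lower from fewer UMIs. Equal weight per cell gave 1.49 (membrane), 4.15 (maturation), −1.04 (ribosomal), −0.38 (mitochondrial), 682 features lower, a beta share of 79.8% and a globin share of 49.3% of the sums as deposited. Without dividing, mitochondria-rich and undefined clusters the ribosomal and mitochondrial sums were −1.05 and 0.17. The globin share of the sums as deposited, 48.7%, was 80.5% with each repeated feature counted once, 48.9% without the 3 cells with the most UMIs and, added after seeing the data, 92.2% of the deposited totals and 48.9% without the cell with the most genes. The cause of the other moves was not tested. The remaining 47 of 84 values stayed within the main interval, or within 1.5 times for counts. Among 38 single genes no other changed sign. No paired analysis was possible because each group held 1 tumor. Depth limits genes under about 50.6 CPM, the floor in these cells.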
